A study of Mus musculus with 10 samples.

Results

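The genes described here are 47 genes of DNA replication and of the passage from G1 to S phase, out of 24411 genes counted in the series. They were chosen by symbol from a fixed list, and all 47 had a row in the count files. By role they were 9 G1 cyclins, kinases and E2f1, 10 genes of origin licensing, 6 of helicase activation, 6 polymerase and primase subunits, 8 genes of the sliding clamp, its loader and single-strand binding, 2 of Okazaki fragment joining, 4 of deoxynucleotide supply and 2 of maintenance DNA methylation. RNA was sequenced from 10 mouse libraries in 4 groups. BV2 cells, an immortalised mouse microglial line, were treated with EPZ-6438 and LPS (n = 2) or with EPZ-6438 alone (n = 2). Primary microglia from 3-day-old ICR mice were treated with EPZ-6438 and LPS (n = 3) or with EPZ-6438 alone (n = 3). EPZ-6438, a small molecule inhibitor of the histone methyltransferase EZH2, was given at 10 uM in every group, and LPS, lipopolysaccharide from bacteria and a standard activator of microglia, at 10 ng/ml, with a treatment time of 4 h. Because all 10 libraries carry the inhibitor and no library without it was analysed here, no value below measures what the inhibitor does. The primary cells came from 12 pooled brains without meninges, grown for 2 weeks as mixed glia and shaken off the layer beneath them. The labels do not say whether replicates were separate cultures, so p-values cover only the spread among the libraries of a group, which may be technical. The series set out to ask how EZH2 inhibition bears on the activation of neonatal microglia.

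A cell that commits to division first builds up D-type cyclins, which with Cdk4 or Cdk6 phosphorylate the retinoblastoma protein and release E2F transcription factors. E2F factors switch on cyclin E, Cdk2 partners and most replication genes. Replication origins are licensed when the origin recognition complex, Cdc6 and Cdt1 load the ring of Mcm2 to Mcm7 proteins onto DNA. The ring becomes an active helicase when Cdc45 and the GINS complex join it, after which primase and the polymerases copy both strands on the Pcna clamp that the Rfc complex loads. Dnmt1, guided by Uhrf1, then restores the methylation pattern on the new strand. Microglia in culture divide slowly unless growth factors drive them, whereas an immortalised line cycles continuously.

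The libraries held 2750988 to 3684012 counts assigned to genes, of which 1636 to 14153 per library fell on the 47 genes. Values are in CPM, the counts of a gene relative to all gene counts of its library, on library sizes scaled by the trimmed mean of M-values (TMM). A count of 3 reads, taken as the floor, equals 0.844 to 1.22 CPM. The floor covers counting error only, and reads carry no molecular identifiers. Libraries of primary microglia differed in the share of counts on Rn45s, the ribosomal RNA precursor. It was 43.7%, 15.7% and 16.0% in the libraries with LPS, against 50.3%, 51.7% and 40.9% without LPS, and 27.0% to 30.1% in BV2 cells. Replicate 1 of primary microglia with LPS stood apart from replicates 2 and 3 of its group, so results were also computed without it and without the other pair. The microglial markers did not all follow the labels. Cx3cr1 was at 3.38 to 5.36 CPM in BV2 cells with LPS and at most 2.97 CPM without, near the floor, against 115 to 132 CPM in primary microglia with LPS and 119 to 141 CPM without. Fcrls was at 4.36 to 7.60 CPM and 5.61 to 6.85 CPM in BV2 cells, against 159 to 206 CPM and 128 to 184 CPM in primary microglia. Tmem119 ran the other way, at 9.85 to 18.1 CPM over the BV2 libraries, against medians of 1.98 CPM with LPS and 2.44 CPM without in primary microglia. P2ry12 was low in both, at most 2.97 CPM in BV2 cells and 6.93 CPM in primary microglia. Csf1r was at 132 to 136 CPM with LPS and 134 to 184 CPM without in BV2 cells, against 80.5 to 179.8 CPM and 257 to 355 CPM in primary microglia. Gfap, an astrocyte marker, was at 0 in all 4 BV2 libraries, against 478 to 1040 CPM in primary microglia with LPS and 537 to 963 CPM without.

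Promoter sequence is shown because many of the replication genes stood together high in BV2 cells, and E2F sites are the best known shared element of such promoters. RefSeq promoters (GRCm38.p6, 250 bases before to 50 after the gene start) were matched for 37 of the 47 genes. An E2F match was counted as TTTCCCGC, TTTCGCGC, TTTGCCGC or TTTGGCGC on either strand. Overlapping matches were allowed, because on opposite strands these letters can cover each other. Of the 37 genes, 15 held at least 1 match, or 40.5%, against 704 of 27025 genes in the promoter table, or 2.60%. The 15 were Cdk2, Orc1, Cdc6, Cdt1, Mcm3, Mcm5, Mcm6, Mcm7, Gins3, Pola1, Pold1, Rfc3, Lig1, Uhrf1 and Dnmt1. For comparison, the CHR element of mitotic genes, TTTGAA or TTCGAA on either strand, was found in 7 of the 37 genes (18.9%) and in 21.7% of all genes. A match describes letters in this window and is not a site, and a window without one says nothing about the factor. The promoters below are from 4 genes that carry a match, of licensing (Mcm5 and Cdc6), clamp loading (Rfc3) and the G1 kinases (Cdk2), and from Pcna, which carries none. Capitals mark the E2F matches. Mcm5 lies at chr8:75109259-75109558 on the plus strand with overlapping matches beginning 153 and 149 bases before the start, and Cdc6 at chr11:98907901-98908200 on the plus strand with a match 138 bases before it. Rfc3 lies at chr5:151651159-151651458 on the minus strand with one match 10 bases before the start and another at it, Cdk2 at chr10:128705002-128705301 on the minus strand with a match 140 bases before it, and Pcna at chr2:132253131-132253430 on the minus strand.
Mcm5: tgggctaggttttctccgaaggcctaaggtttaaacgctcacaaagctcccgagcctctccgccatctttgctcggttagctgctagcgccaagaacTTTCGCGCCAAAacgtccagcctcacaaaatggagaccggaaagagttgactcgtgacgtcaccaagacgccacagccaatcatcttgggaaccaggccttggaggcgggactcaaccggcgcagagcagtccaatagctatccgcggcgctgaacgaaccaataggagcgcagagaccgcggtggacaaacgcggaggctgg
Cdc6: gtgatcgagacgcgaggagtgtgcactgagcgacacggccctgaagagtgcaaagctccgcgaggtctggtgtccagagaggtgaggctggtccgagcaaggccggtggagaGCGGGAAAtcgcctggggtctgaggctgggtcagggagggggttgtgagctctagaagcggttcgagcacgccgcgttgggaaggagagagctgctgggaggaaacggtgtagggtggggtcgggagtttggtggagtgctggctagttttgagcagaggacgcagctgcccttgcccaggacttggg
Rfc3: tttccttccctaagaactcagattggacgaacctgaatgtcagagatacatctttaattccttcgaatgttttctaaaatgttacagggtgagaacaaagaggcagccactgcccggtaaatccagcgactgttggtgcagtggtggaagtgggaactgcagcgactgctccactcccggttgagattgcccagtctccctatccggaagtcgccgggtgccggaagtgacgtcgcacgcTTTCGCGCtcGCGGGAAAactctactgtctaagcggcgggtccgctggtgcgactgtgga
Cdk2: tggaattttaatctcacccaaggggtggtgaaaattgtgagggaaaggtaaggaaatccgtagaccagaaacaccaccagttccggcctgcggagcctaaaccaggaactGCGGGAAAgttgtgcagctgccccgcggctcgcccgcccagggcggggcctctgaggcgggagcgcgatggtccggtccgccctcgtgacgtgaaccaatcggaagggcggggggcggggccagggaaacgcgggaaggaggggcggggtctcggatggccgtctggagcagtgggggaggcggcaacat
Pcna: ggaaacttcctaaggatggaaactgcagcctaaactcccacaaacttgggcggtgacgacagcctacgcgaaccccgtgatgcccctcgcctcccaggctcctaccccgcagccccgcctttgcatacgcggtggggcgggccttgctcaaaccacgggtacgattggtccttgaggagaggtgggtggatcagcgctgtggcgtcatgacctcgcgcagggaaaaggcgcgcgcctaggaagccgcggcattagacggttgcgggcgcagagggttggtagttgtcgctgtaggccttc

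BV2 cells held far more replication RNA than primary microglia, in both treatments. Summed over the 47 genes, BV2 cells with LPS had 3682 to 3989 CPM and primary microglia with LPS 677 to 709 CPM, a ratio of means of 5.56. Without LPS the sums were 4191 to 4408 CPM in BV2 cells and 667 to 701 CPM in primary microglia, a ratio of 6.27. By edgeR's quasi-likelihood test with Benjamini-Hochberg adjustment at 0.05 over all genes, 44 of the 47 genes were higher in BV2 cells than in primary microglia without LPS, and 1, Ccnd2, was lower. Over all 11626 genes tested in that comparison, 74.1% were called, 32.5% higher and 41.5% lower. The median of the 47 genes was a log2 fold change of 3.01, or 8.05-fold, against a median of -0.23 over all genes. With LPS, 45 were higher and 2, Ccnd2 and Cdk6, were lower, where 73.8% of all genes were called, 30.7% higher and 43.1% lower, and the median was 3.09, or 8.50-fold, against -0.29. The cell line and the primary culture differ in source, passage and purity, which cannot be told apart from cell type in these groups. In bulk RNA, fewer cells of a type and less RNA per cell cannot be told apart. Summed astrocyte markers (14 genes) were at 64.7 to 67.2 CPM in BV2 cells with LPS and 66.0 to 73.2 CPM without, with 12 and 11 of the genes at 0, against 1020 to 1752 CPM and 1013 to 1635 CPM in primary microglia. Summed fibroblast markers (11 genes) were at at most 0.281 CPM with LPS and no more than 1 read per library without in BV2 cells, against 251 to 563 CPM and 381 to 759 CPM in primary microglia. The part of these other cells in the differences was not tested.

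**Figure D1:**
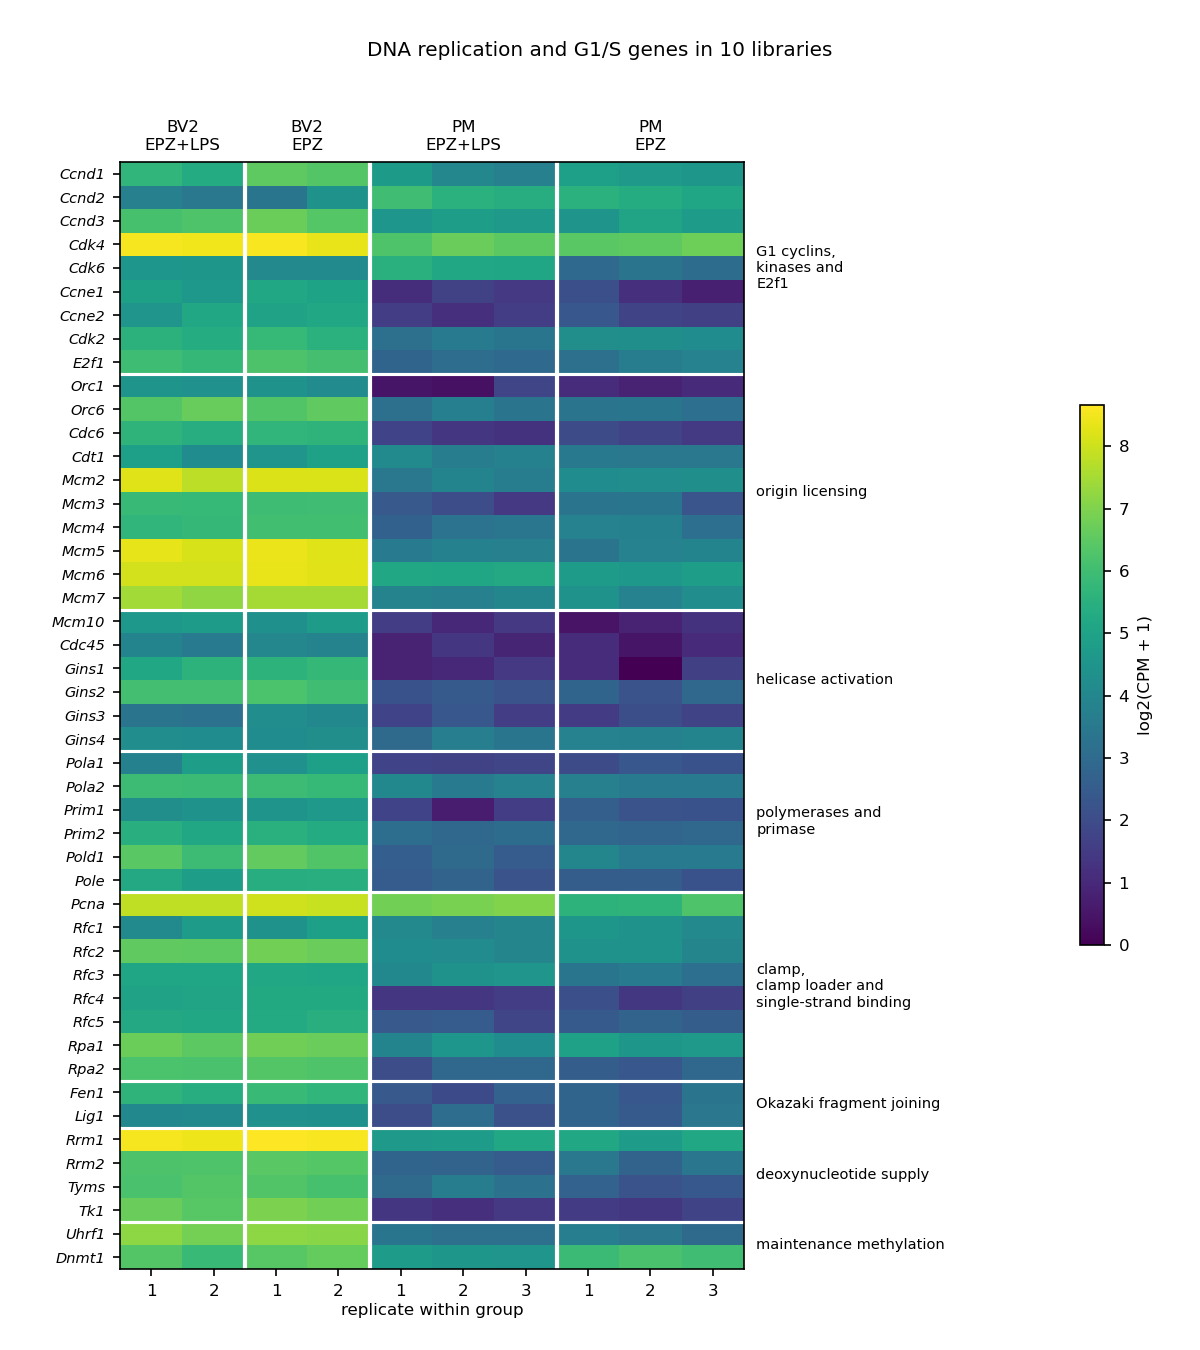
Heat map of log2(CPM + 1) for the 47 genes, ordered by role from top to bottom, in the 10 libraries, with BV2 cells with LPS and without LPS left of primary microglia with LPS and without LPS. Brighter colours are higher values. The columns of BV2 cells are brighter than those of primary microglia for most rows, with Ccnd2 the visible exception. Within a cell type the columns with and without LPS look much alike.

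The 10 largest differences without LPS were in Tk1 and Tyms of nucleotide supply, Mcm5, Mcm2, Cdc6 and Orc1 of licensing, Gins1, Mcm10 and Cdc45 of helicase activation, and Ccne1. Tk1, thymidine kinase of the salvage pathway, had 122 and 113 CPM in BV2 cells, against 1.87, 1.63 and 2.45 CPM in primary microglia, both without LPS. In LPS-treated libraries it had 101 and 83.3 CPM in BV2 cells, against 1.56, 1.27 and 1.70 CPM in primary microglia. The groups lay far apart, and the log2 fold change without LPS was 5.84 ± 0.23 (SE, adjusted p = 5.81e-18), or 57.2-fold. That fold rests on 5, 4 and 7 reads in the primary libraries without LPS, so its size is uncertain. Tyms, thymidylate synthase, had 78.8 and 69.0 CPM in BV2 cells, against 5.60, 3.67 and 4.21 CPM in primary microglia without LPS. After LPS the gene had 72.1 and 81.0 CPM in BV2 cells, against 7.04, 11.8 and 8.48 CPM in primary microglia. It was 16.2-fold higher without LPS and 8.31-fold higher with LPS. Its pseudogene Tyms-ps has a row of its own, and reads that map to both would be multimapping reads, which were left out. Rrm1, the large subunit of ribonucleotide reductase, was 12.2-fold higher without LPS. All 4 genes of deoxynucleotide supply were called higher, where 32.5% of all genes were.

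Origin licensing was higher throughout, with 10 of 10 genes called higher without LPS, where 32.5% of all genes were. The median log2 fold change was 3.49, against -0.23 over all genes. Mcm5, a subunit of the helicase ring, had 340.1 and 301 CPM in BV2 cells, against 8.96, 13.4 and 14.0 CPM in primary microglia without LPS. With LPS it had 322 and 279 CPM in BV2 cells, against 10.6, 13.0 and 12.7 CPM in primary microglia. It was the ring subunit with the widest gap, 26.2-fold without LPS (log2 4.71 ± 0.17 SE, adjusted p = 1.17e-18). Mcm2 had 294 and 284 CPM in BV2 cells, against 17.6, 17.9 and 18.9 CPM in primary microglia without LPS. In LPS-treated libraries it had 302 and 222 CPM in BV2 cells, against 10.2, 14.0 and 11.9 CPM in primary microglia. Its difference without LPS was 15.9-fold.

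Cdc6 and Orc1 were close to the floor in primary microglia, so their folds rest on few reads there. Cdc6, the loader that recruits the ring, had 51.4 and 49.2 CPM in BV2 cells, against 2.99, 2.44 and 1.75 CPM in primary microglia without LPS. After LPS the gene had 48.6 and 40.8 CPM in BV2 cells, against 2.35, 1.59 and 1.41 CPM in primary microglia. The fold without LPS was 20.7. Orc1, the largest subunit of the origin recognition complex, had 20.2 and 17.2 CPM in BV2 cells, against 1.12, 0.815 and 1.05 CPM in primary microglia without LPS. With LPS it had 21.1 and 19.7 CPM in BV2 cells, against 0.391, 0.318 and 2.54 CPM in primary microglia. It was 18.0-fold higher without LPS (log2 4.17 ± 0.43 SE, adjusted p = 2.27e-09), and the log2 value was 2.45 with unstranded counts and 4.85 with the replicate block. Cdt1, the partner of Cdc6 that is destroyed once S phase begins, had the smallest licensing difference, with a log2 fold change of 1.34 ± 0.25 (SE) without LPS and 0.75 with LPS. Its call with LPS was lost without replicate 1 of BV2 cells with LPS (adjusted p = 0.263) and without replicates 2 and 3 of primary microglia with LPS (0.195).

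Of the 6 helicase activation genes, 5 were called higher without LPS, where 32.5% of all genes were. Gins1, a GINS subunit, had 48.0 and 53.1 CPM in BV2 cells, against 1.12, 0 and 2.10 CPM in primary microglia without LPS. In LPS-treated libraries it had 34.9 and 47.3 CPM in BV2 cells, against 0.782, 0.954 and 1.70 CPM in primary microglia. Its log2 fold change without LPS was 5.44 ± 0.36 (SE, adjusted p = 6.88e-13), with 3, 0 and 6 reads in the primary libraries. It was 6.28 without replicate 3 of untreated primary microglia and 6.05 with the replicate block, and 4.90 at its lowest over the alternatives. Mcm10, which helps to switch the helicase on, had 19.3 and 26.7 CPM in BV2 cells, against 0.373, 0.815 and 1.40 CPM in primary microglia without LPS. After LPS the gene had 23.8 and 25.9 CPM in BV2 cells, against 1.95, 0.954 and 1.70 CPM in primary microglia. Its log2 fold change without LPS was 4.65 ± 0.39 (SE, adjusted p = 3.68e-11), with 1 to 4 reads per primary library. Cdc45, which joins the ring at each firing origin, had 15.3 and 13.5 CPM in BV2 cells, against 1.12, 0.407 and 1.05 CPM in primary microglia without LPS. With LPS it had 14.1 and 11.3 CPM in BV2 cells, against 0.782, 1.59 and 0.848 CPM in primary microglia. It differed 15.7-fold without LPS (log2 3.97 ± 0.42 SE), with 3, 1 and 3 reads in the primary libraries, at or under the floor. Gins4 departed from this pattern, at 17.4 and 18.5 CPM in BV2 cells and 13.4, 13.0 and 14.0 CPM in primary microglia without LPS, a log2 fold change of 0.41 ± 0.24 (SE) that did not pass the test (adjusted p = 0.130).

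The copying and clamp genes differed less. All 6 polymerase and primase genes were higher in BV2 cells without LPS, with log2 fold changes of 2.32 to 3.24. Of the 8 clamp, loader and single-strand binding genes 7 were higher. Over all genes 74.1% were called in this comparison, 32.5% higher. The exception was Rfc1, the large clamp loader subunit, at 20.6 and 28.4 CPM in BV2 cells and 23.2, 20.4 and 15.8 CPM in primary microglia without LPS, where the libraries overlapped. Its log2 fold change was 0.31 ± 0.24 (SE, adjusted p = 0.246). With LPS it was called at 0.59 (adjusted p = 0.0311), but not without replicate 2 or 3 of primary microglia with LPS (0.0907 and 0.0640) or replicate 2 of BV2 cells with LPS (0.572), nor with DESeq2 (0.105). Fen1 and Lig1, the flap endonuclease and ligase that finish Okazaki fragments, were both called. Uhrf1 and Dnmt1 differed in size, with Uhrf1 at a log2 fold change of 3.88 ± 0.18 and Dnmt1 at 0.50 ± 0.16 (SE) without LPS, and the call of Dnmt1 was lost without replicate 2 of BV2 cells (adjusted p = 0.0820).

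**Figure D2:**
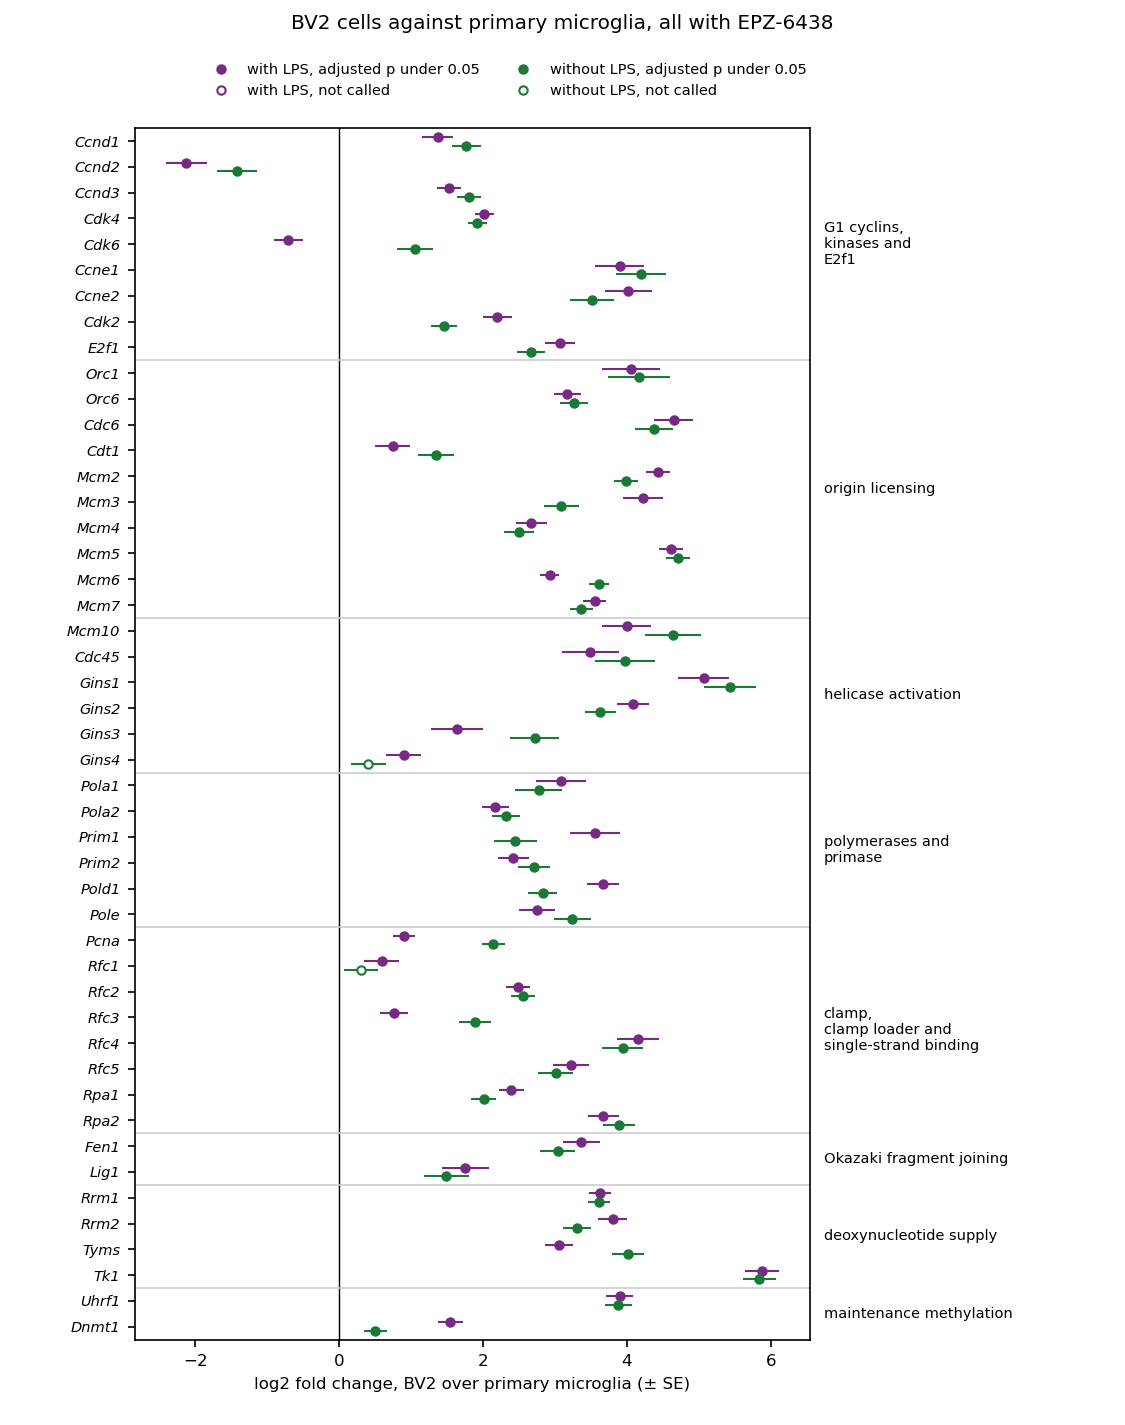
Log2 fold change of BV2 cells over primary microglia for each of the 47 genes, with its SE as bars, in libraries with LPS (purple, drawn above) and without LPS (green). Filled points passed an adjusted p of 0.05; nearly all points lie right of 0, with Ccnd2 left of 0 in both treatments and Cdk6 left of 0 with LPS.

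The G1 genes were the most mixed of the roles. Ccne1, cyclin E1, which drives Cdk2 at the G1/S border, had 34.6 and 31.4 CPM in BV2 cells, against 3.36, 1.22 and 0.701 CPM in primary microglia without LPS. In LPS-treated libraries it had 29.5 and 23.6 CPM in BV2 cells, against 1.17, 2.22 and 1.70 CPM in primary microglia. The difference without LPS was log2 4.20 ± 0.34 (SE, adjusted p = 2.06e-11), with 9, 3 and 2 reads in the primary libraries. Over the alternatives it ran from 3.74 to 5.05, the highest without replicate 1 of untreated primary microglia. Cdk4 was 3.80-fold higher in BV2 cells without LPS and 4.06-fold higher with LPS. Ccnd2, cyclin D2, ran the other way, with 9.34 and 20.5 CPM in BV2 cells against 45.6, 40.3 and 33.0 CPM in primary microglia without LPS. After LPS the gene had 12.7 and 10.1 CPM in BV2 cells, against 63.7, 45.5 and 40.7 CPM in primary microglia. All BV2 libraries lay below all primary libraries, with log2 fold changes of -1.42 ± 0.28 without LPS (SE, adjusted p = 2.11e-04) and -2.12 ± 0.29 with LPS (adjusted p = 2.97e-06). Without replicate 2 of BV2 cells without LPS the first of these was -2.07. Cdk6 was higher in BV2 cells without LPS at log2 1.06 ± 0.25 (SE, adjusted p = 4.92e-04) and lower with LPS at -0.71 ± 0.20 (adjusted p = 0.00243), and its levels by library are given with the LPS results.

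Per kilobase of transcript, a scale on which genes can be compared, the D cyclins were used in different proportions. Ccnd2 made up 3.73% ± 0.53 of the summed D-cyclin CPM per kb in BV2 cells with LPS and 3.52% ± 2.19 without (SD, n = 2 each), against 31.9% ± 3.98 in primary microglia with LPS and 24.5% ± 3.90 without (SD, n = 3 each). Ccnd3 was the largest share in every group, at 71.4% and 63.5% in BV2 cells with and without LPS and 49.2% in primary microglia in both treatments. The 6 ring subunits, which act in equal numbers in the protein complex, did not have equal RNA levels per kb. In BV2 cells without LPS they ran from Mcm5 at 94.8 through Mcm2 at 85.8, Mcm6 at 73.3, Mcm7 at 60.8 and Mcm3 at 20.6 to Mcm4 at 18.1 mean CPM per kb. In primary microglia without LPS the order was Mcm6 at 5.96, Mcm7 at 5.84, Mcm2 at 5.38, Mcm5 at 3.59, Mcm4 at 3.21 and Mcm3 at 2.44. The highest subunit stood 5.23 times above the lowest in BV2 cells and 2.44 times in primary microglia without LPS. With LPS the ratios were 6.10 and 7.96. The lowest subunit behind the 7.96 was Mcm3, with only 11, 10 and 6 reads in primary microglia with LPS. These ratios rest on the longest annotated transcript of each gene, and no test was made between neighbours in the order.

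In primary microglia LPS left the summed level of the 47 genes almost where it was, at 677 to 709 CPM with LPS and 667 to 701 CPM without, a ratio of means of 1.01. Genes of high counts weigh most in that sum, Pcna among them, at 111 to 129 CPM with LPS and 47.1 to 75.7 CPM without. Beneath the sum single genes moved in both directions. Of the 35 genes with enough counts to be tested, 5 were higher with LPS (Cdk6, Pcna, Rfc3, Tyms and Mcm6) and 7 were lower (Dnmt1, Pold1, Mcm3, Cdk2, Mcm2, E2f1 and Rpa1). That is 34.3% of those tested, where 39.2% of all 10664 genes tested were called, 21.4% higher and 17.8% lower, so the share is close to the background. The median of the 35 was -0.18 and that of all genes -0.03, on the log2 scale. Estimates lay below 0 for 23 of the 35 genes and above 0 for 12. The other 12 genes were too low in primary microglia to enter the test: Ccne1, Ccne2, Orc1, Cdc6, Mcm10, Cdc45, Gins1, Gins3, Pola1, Prim1, Rfc4 and Tk1. Summed microglial markers (15 genes) were at 3345 to 3781 CPM with LPS and 2767 to 3235 CPM without, and the fibroblast sum was at 251 to 563 and 381 to 759 CPM. The microglial list did not move as 1 block: of its 14 tested genes 4 were higher and 3 lower, with a median of 0.05. Ptprc and Fcer1g rose by 1.88 and 1.49 on the log2 scale, while Csf1r had 179.8, 102 and 80.5 CPM with LPS, against 355, 330.4 and 257 CPM without. The part of these markers in the changes was not tested. With a scaling that left out genes above 1% of counts, Rn45s among them, 5 genes were higher and 8 lower, the eighth being Prim1. Over all 10673 genes tested with that scaling, 2211 were higher and 2018 lower.

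Cdk6, the kinase partner of the D cyclins, changed most. It had 44.6, 34.6 and 32.8 CPM in primary microglia with LPS, against 6.72, 8.96 and 7.36 CPM without LPS. The lowest library with LPS lay far above the highest without, and the log2 fold change was 2.26 ± 0.21 (SE, adjusted p = 6.05e-08), or 4.79-fold. The gene spans chromosome 5 from 3341485 to 3531008 in GRCm38. Cdk4, which shares its function, did not pass the test, at 77.4, 101 and 88.2 CPM with LPS and 85.9, 90.5 and 106 CPM without, with overlapping libraries. Cdk2, the kinase that cyclin E drives, fell. It had 8.21, 10.5 and 9.32 CPM with LPS, against 18.3, 18.7 and 17.5 CPM without, with no overlap, and the log2 fold change was -0.96 ± 0.22 (SE, adjusted p = 0.00152). E2f1, the activating E2F factor, had 5.86, 7.63 and 6.78 CPM with LPS, against 8.22, 11.8 and 13.3 CPM without, with no overlap and a log2 fold change of -0.72 ± 0.27 (SE, adjusted p = 0.0413).

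Around the replication fork the sliding clamp rose with 1 of the subunits that load it. Pcna, the clamp, had 111, 121 and 129 CPM with LPS, against 47.1, 48.5 and 75.7 CPM without. The libraries did not overlap, and the log2 fold change was 1.06 ± 0.16 (SE, adjusted p = 7.29e-05). Rfc3, a small loader subunit, had 15.6, 21.0 and 22.0 CPM with LPS, against 9.34, 10.6 and 8.06 CPM without, again with no overlap, at 1.07 ± 0.23 (SE, adjusted p = 0.00100). The other tested loader subunits, Rfc1, Rfc2 and Rfc5, did not pass the test, with log2 fold changes of -0.47, -0.18 and -0.41. Rpa1, the large single-strand binding subunit, had 14.1, 22.6 and 17.5 CPM with LPS, against 29.9, 22.8 and 24.9 CPM without, where the groups nearly touched, at -0.52 ± 0.20 (SE, adjusted p = 0.0499). Pold1, the catalytic subunit of DNA polymerase delta, which works on the Pcna clamp, fell: it had 5.08, 6.99 and 4.80 CPM with LPS, against 14.6, 11.0 and 10.9 CPM without. Its log2 fold change was -1.12 ± 0.27 (SE, adjusted p = 0.00286) with no overlap.

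The ring subunits did not move together. Mcm6 had 34.4, 34.0 and 36.5 CPM with LPS, against 26.5, 23.6 and 27.7 CPM without, higher in every library at log2 0.42 ± 0.16 (SE, adjusted p = 0.0430). Mcm3 had 4.30, 3.18 and 1.70 CPM with LPS, against 8.96, 9.37 and 3.86 CPM without, and its groups overlapped, since 1 library without LPS lay below 1 with it. Its log2 fold change was -1.31 ± 0.41 (SE, adjusted p = 0.0159). Mcm2 had 10.2, 14.0 and 11.9 CPM with LPS, against 17.6, 17.9 and 18.9 CPM without, with no overlap, at -0.60 ± 0.21 (SE, adjusted p = 0.0313). Mcm4, Mcm5 and Mcm7 did not pass the test. Of the nucleotide enzymes Tyms had 7.04, 11.8 and 8.48 CPM with LPS, against 5.60, 3.67 and 4.21 CPM without, with no overlap, at 1.00 ± 0.31 (SE, adjusted p = 0.0153), while Rrm1 and Rrm2 did not pass at -0.16 and -0.65.

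Dnmt1, the maintenance methyltransferase, fell more than any other of the 35 tested genes. It had 26.2, 22.9 and 21.8 CPM with LPS, against 59.4, 70.5 and 63.1 CPM without. The groups were far apart, and the log2 fold change was -1.46 ± 0.15 (SE, adjusted p = 1.53e-07). Its partner Uhrf1 had 9.38, 8.26 and 8.19 CPM with LPS, against 12.0, 9.78 and 7.01 CPM without, and did not pass the test. Ccnd1, cyclin D1, had 25.4, 14.9 and 12.7 CPM with LPS, against 28.4, 24.0 and 22.8 CPM without, with replicate 1 inside the range of the untreated libraries. Its log2 fold change of -0.54 ± 0.23 (SE) missed the threshold (adjusted p = 0.0755). Without replicate 1 of primary microglia with LPS it was called at -0.87 (adjusted p = 1.97e-04), and without replicates 2 and 3 it stood at 0.04.

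**Figure D3:**
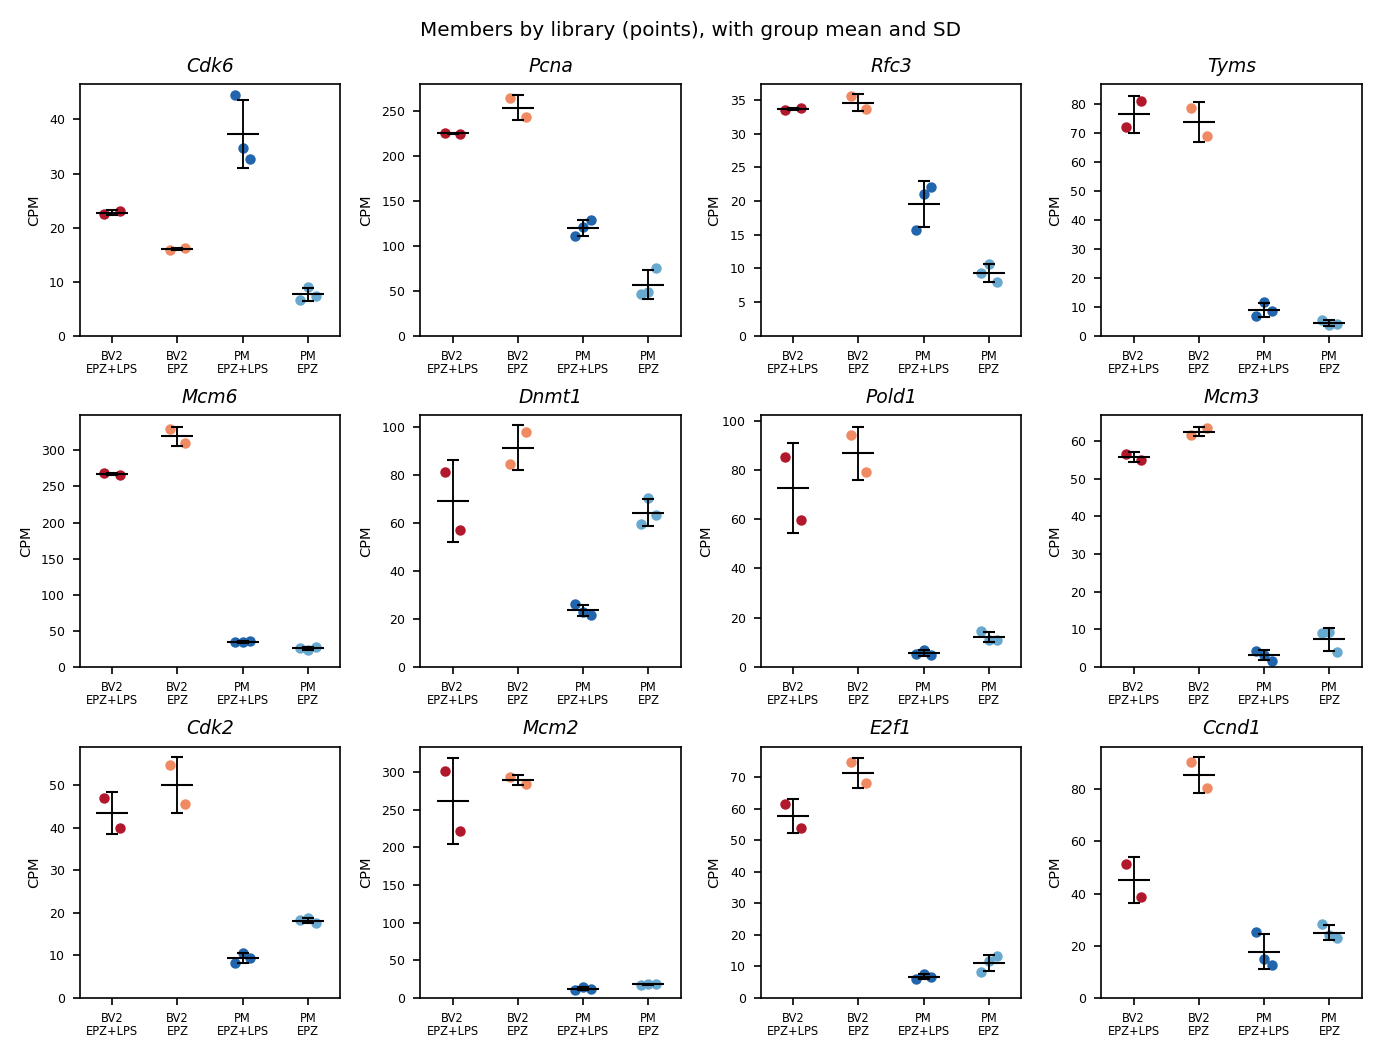
CPM by library for 12 genes, 1 panel each, with BV2 cells with LPS and without LPS left of primary microglia with LPS and without LPS; points are libraries and bars the mean ± SD. In primary microglia Cdk6, Pcna, Rfc3, Tyms and Mcm6 sit higher with LPS and Dnmt1, Pold1, Mcm3, Cdk2, Mcm2 and E2f1 lower, whereas in BV2 cells Ccnd1 shows the clear step, with a mean of 45.1 CPM with LPS against 85.4 CPM without.

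The firmness of the 12 calls differed. Cdk6, Pcna, Dnmt1, Pold1 and Cdk2 were called in all 14 alternative analyses of primary microglia, and Rfc3 in 13, its adjusted p being 0.0697 without replicates 2 and 3 of the group with LPS. The other 6 depended on single libraries. For E2f1 the adjusted p was 0.119 and 0.171 without replicate 2 or 3 of untreated cells, and 0.0599, 0.0547 and 0.105 without replicate 1, 2 or 3 of cells with LPS. For Mcm2 it was 0.0736, 0.0764 and 0.0835 without replicate 1, 2 or 3 of untreated cells, and 0.0612 and 0.0904 without replicate 1 or 3 of cells with LPS. For Mcm3 it was 0.0905 and 0.0916 without replicate 1 or 2 of untreated cells and 0.105 without replicate 3 of cells with LPS. For Mcm6 it was 0.0938, 0.147 and 0.0647 without replicate 1, 2 or 3 of untreated cells, and 0.0654 and 0.116 without replicate 2 or 3 of cells with LPS. For Rpa1 it was 0.224, 0.0639 and 0.0841 without replicate 1, 2 or 3 of untreated cells, and 0.0941 and 0.145 without replicate 1 or 3 of cells with LPS. For Tyms it was 0.0675 and 0.0566 without replicate 2 or 3 of untreated cells and 0.0845 without replicate 2 of cells with LPS. DESeq2 called none of these 6 genes, with adjusted p-values of 0.0818 to 0.222.

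In BV2 cells a single gene of the 47, cyclin D1, passed the test for LPS. The sum over the 47 genes was 3682 to 3989 CPM with LPS and 4191 to 4408 CPM without, a ratio of means of 0.892. All 47 genes were tested and 1, Ccnd1, was called lower, or 2.13%, where 5.2% of all 9321 genes were called, 3.69% higher and 1.51% lower. None was called higher by edgeR's quasi-likelihood test, with 1 gene higher at an unadjusted p below 0.05 and none called higher by DESeq2. Estimates lay below 0 for 39 of the 47 genes and above 0 for 8, with a median of -0.15 against -0.01 over all genes, on the log2 scale. Over the 11 alternative analyses this median ran between -0.18 and -0.10. Summed microglial markers were at 2335 to 2392 CPM with LPS and 2271 to 2366 CPM without.

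Ccnd1, which growth factors induce in early G1, had 51.3 and 38.8 CPM in BV2 cells with LPS, against 90.3 and 80.5 CPM without. Both libraries with LPS lay below both without, and the log2 fold change was -0.89 ± 0.17 (SE, adjusted p = 0.00711), a 1.86-fold fall. It was called in all 11 alternative analyses, with a highest adjusted p of 0.0465. Cdk6 had 22.5 and 23.1 CPM with LPS, against 15.9 and 16.2 CPM without, with no overlap, and did not pass the test at 0.54 ± 0.22 (SE, adjusted p = 0.252). Gins3, a GINS subunit, had 9.05 and 8.72 CPM with LPS, against 18.1 and 15.5 CPM without, also without overlap, and missed the threshold at -0.88 ± 0.25 (SE, adjusted p = 0.0735). Dnmt1 had 81.1 and 57.1 CPM with LPS, against 84.7 and 98.0 CPM without, at -0.38 ± 0.18 (SE, adjusted p = 0.380). Without replicate 1 of BV2 cells with LPS it was called at -0.63 (adjusted p = 0.0165).

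**Figure D4:**
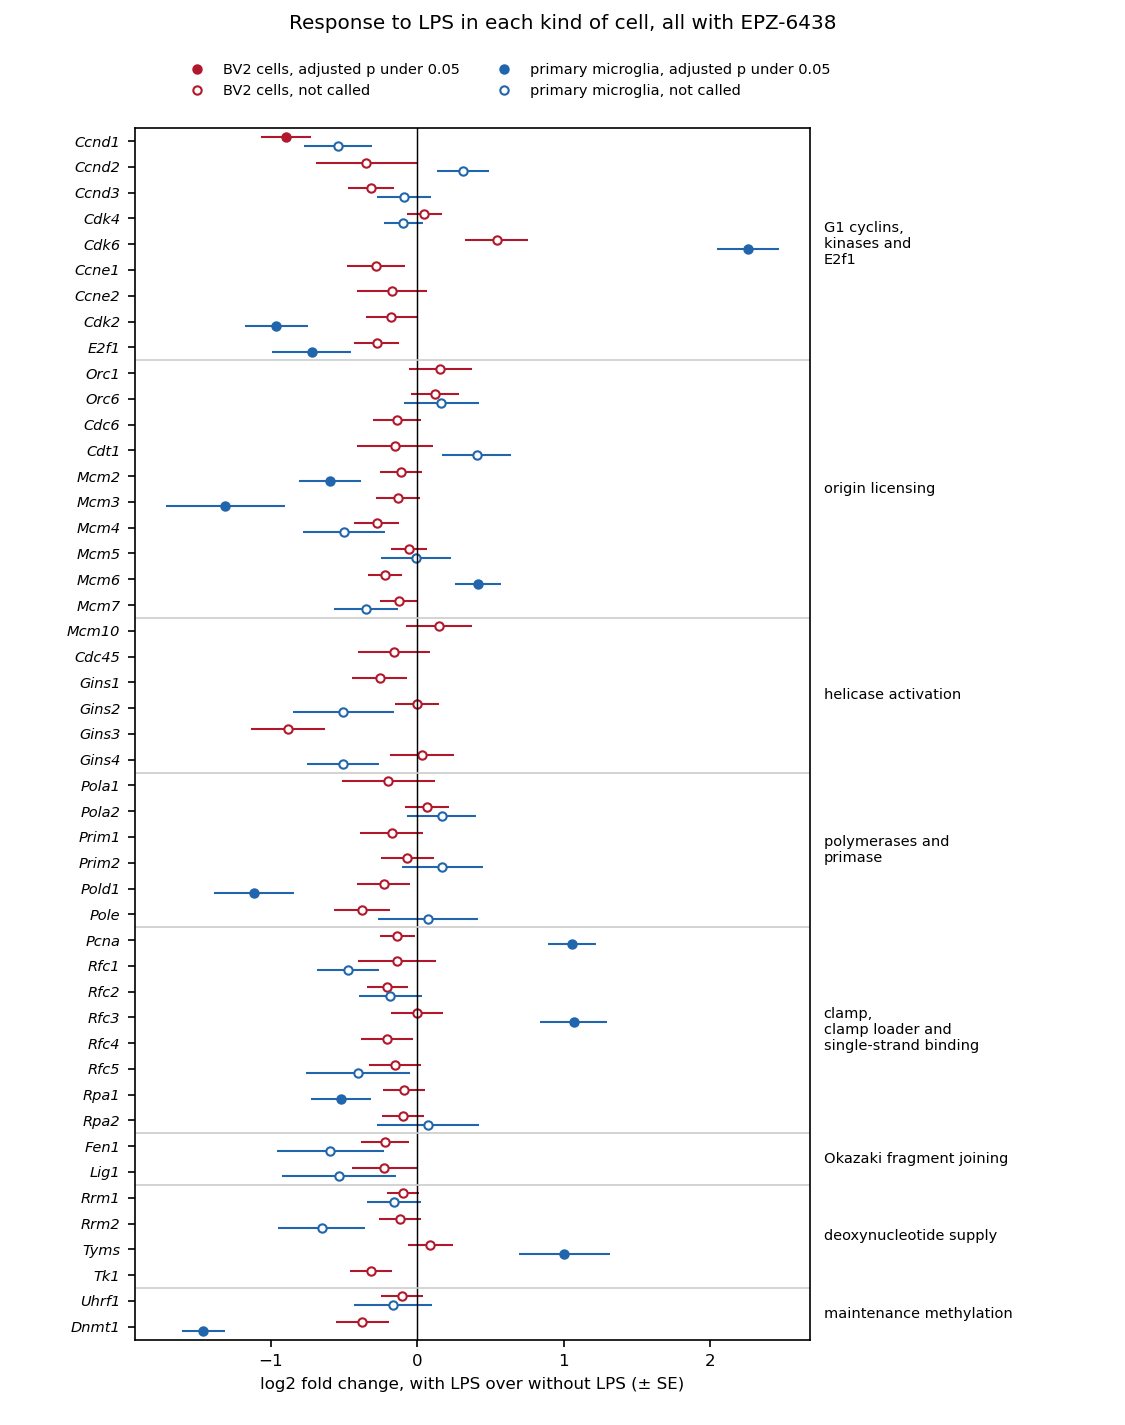
Log2 fold change of libraries with LPS over libraries without LPS for each of the 47 genes, with its SE as bars, in BV2 cells (red) and primary microglia (blue); filled points passed an adjusted p of 0.05, and genes not tested in primary microglia have no blue point. Blue points reach 2.26 for Cdk6 and -1.46 for Dnmt1, while red points lie between -0.89 for Ccnd1 and 0.54 for Cdk6.

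The difference of the LPS responses, BV2 cells minus primary microglia, was tested in a fit of all 10 libraries. It was called for 5 of the 47 genes (1 higher, 4 lower), or 10.6%, where 12.2% of all 11626 genes were called, 3.54% higher and 8.65% lower. The difference was -1.77 ± 0.32 for Cdk6 (SE, adjusted p = 2.00e-04) and -1.24 ± 0.22 for Pcna (adjusted p = 1.76e-04). Pcna had 226 and 225 CPM in BV2 cells with LPS, against 264 and 244 CPM without. For Rfc3 the difference was -1.12 ± 0.30 (SE, adjusted p = 0.0101), with 33.5 and 33.8 CPM in BV2 cells with LPS, against 35.5 and 33.7 CPM without. For Mcm6 it was -0.68 ± 0.20 (SE, adjusted p = 0.0181), with 269 and 266 CPM in BV2 cells with LPS, against 329 and 309.9 CPM without. All 4 responded more positively to LPS in primary microglia. Dnmt1 went the other way, with a difference of 1.04 ± 0.24 (SE, adjusted p = 0.00236), its fall being larger in primary microglia. The difference for Ccnd1, called in BV2 cells, was -0.39 and did not pass (adjusted p = 0.520), so its responses were not shown to differ, and it was called at -0.95 (adjusted p = 0.0296) without replicates 2 and 3 of primary microglia with LPS. For Pold1, Cdk2 and Mcm3, all called lower in primary microglia, the differences of 0.84, 0.74 and 1.14 did not pass either (adjusted p = 0.0910, 0.0867 and 0.0756).

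Genes that surround this programme were counted in 5 lists, each with the median log2 fold change. The list nearest to the 47 genes held 37 other genes of the replication machinery. Between BV2 cells and primary microglia without LPS, 30 of the 37 were higher and 1 lower, with a median of 2.07, where 32.5% of all genes were called higher and 41.5% lower. All 20 mitosis genes were higher in BV2 cells, with a median of 4.95 and summed levels of 1888 to 2002 CPM in BV2 cells against 59 to 82 CPM in primary microglia. Of the 11 tested G1/S kinases and timing factors 8 were higher and 1, Myc, lower. Ccna2, cyclin A2, was at a log2 fold change of 5.75. Myc, a growth-promoting transcription factor, was at -4.22, with 2 reads, under the floor, in each BV2 library without LPS. The brakes of the cycle were split. Of 7 tested CDK inhibitors 4 were higher and 3 lower in BV2 cells, with Cdkn1a (p21) at -2.80, Cdkn1b (p27) at -2.26 and Cdkn2a, the Ink4a/Arf locus, at 3.09. Of 11 tested E2F, DP and pocket protein genes 7 were higher and 2 lower. With LPS the counts of higher and lower genes were 27 and 1 for the other replication machinery, 19 and 0 for mitosis, 8 and 1 for the G1/S factors, 4 and 3 for the inhibitors, and 6 and 2 for the E2F group, where 30.7% of all genes were called higher and 43.1% lower.

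In primary microglia 4 of the 5 tested CDK inhibitors passed the test for LPS, 2 in each direction, where 39.2% of all genes tested were called. Cdkn1a, a p53 target that inhibits Cdk2, had 441, 444 and 448 CPM with LPS, against 84.4, 87.6 and 79.6 CPM without. The libraries within each group were close and the groups far apart, at log2 2.39 ± 0.11 (SE, adjusted p = 1.45e-12). Cdkn2b, an inhibitor of Cdk4 and Cdk6, had 14.5, 24.8 and 20.6 CPM with LPS, against 7.47, 6.93 and 5.26 CPM without, and rose by 1.61 ± 0.26 (SE, adjusted p = 6.36e-05). Cdkn1b had 23.1, 30.5 and 27.7 CPM with LPS, against 43.3, 50.9 and 43.8 CPM without, and fell by 0.77 ± 0.16 (SE, adjusted p = 6.29e-04). Cdkn2c, another Cdk4 and Cdk6 inhibitor, had 1.56, 3.18 and 2.26 CPM with LPS, against 6.72, 6.11 and 6.66 CPM without, and fell by 1.45 ± 0.36 (SE, adjusted p = 0.00332). None of these groups overlapped.

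Of 9 tested E2F, DP and pocket protein genes, 3 rose and 3 fell with LPS in primary microglia, where 21.4% of all genes were called higher and 17.8% lower. Rbl1 (p107), a pocket protein that binds repressive E2F factors, had 65.7, 63.3 and 73.8 CPM with LPS, against 13.4, 13.9 and 13.0 CPM without, at log2 2.32 ± 0.16 (SE, adjusted p = 4.56e-10). Rbl2 (p130), its close relative, moved the other way and was named after its values were seen, with 7.82, 2.22 and 1.98 CPM with LPS, against 22.0, 17.9 and 11.6 CPM without, at -2.19 ± 0.45 (SE, adjusted p = 0.00302). E2f5, a repressive E2F, had 19.2, 17.8 and 26.0 CPM with LPS, against 8.96, 11.8 and 14.0 CPM without, at 0.85 ± 0.23 (SE, adjusted p = 0.00713). E2f4, of the same kind, had 33.2, 30.2 and 34.8 CPM with LPS, against 18.3, 21.6 and 19.6 CPM without, at 0.71 ± 0.17 (SE, adjusted p = 0.00254). Rb1, the retinoblastoma gene, had 18.4, 12.7 and 19.2 CPM with LPS, against 35.9, 36.7 and 32.6 CPM without, at -1.07 ± 0.19 (SE, adjusted p = 1.35e-04). In all of these the groups did not overlap. Tfdp2, a partner of E2F factors, had 7.04, 7.31 and 5.09 CPM with LPS, against 17.2, 16.3 and 18.6 CPM without, at -1.45 ± 0.24 (SE, adjusted p = 8.12e-05).

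Of 23 tested genes of the other replication machinery, 2 were higher and 1 lower with LPS in primary microglia, or 13.0% called, where 39.2% of all genes were called. The lower one was Dna2, a nuclease and helicase of Okazaki fragment processing, at -1.35 ± 0.31 (SE, adjusted p = 0.00174). Pole4, a small subunit of DNA polymerase epsilon, was higher at 0.63 (adjusted p = 0.0158), a call lost without replicate 1 or 2 of untreated cells (0.0659 and 0.0719), without replicate 3 of cells with LPS (0.142) and without replicates 2 and 3 of cells with LPS (0.599). Mcmbp, which binds the ring subunits, was higher at 0.39 (adjusted p = 0.0310), a call lost without replicate 2 or 3 of untreated cells (0.104 and 0.116), without replicate 3 or replicates 2 and 3 of cells with LPS (0.144 and 0.183) and with DESeq2 (0.0750). None of 7 tested G1/S kinases and timing factors was called by edgeR's quasi-likelihood test, with 1 at an unadjusted p below 0.05 and none called by DESeq2. Of 5 tested mitosis genes 1 was called higher, Mki67, a proliferation marker, with 46.1, 18.8 and 24.0 CPM with LPS, against 12.7, 12.6 and 8.76 CPM without. Replicate 1 with LPS was the highest and the groups did not overlap, at 1.35 ± 0.35 (SE, adjusted p = 0.0116), but the call was lost without replicate 3 of untreated cells (adjusted p = 0.0647) and in the fit of all 10 libraries (0.0936). Without replicates 2 and 3 of cells with LPS the value was 2.04.

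In BV2 cells these lists held a single call with LPS, where 5.2% of all 9321 genes tested were called. The call was Mybl2, an E2F target that drives mitotic genes. It had 21.1 and 18.0 CPM with LPS, against 35.2 and 37.0 CPM without, at log2 -0.85 ± 0.20 (SE, adjusted p = 0.0257). The call was lost without replicate 1 or 2 of BV2 cells without LPS (adjusted p = 0.0903 and 0.149) and with DESeq2 (0.203). None of the 37 other replication genes, 11 E2F, DP and pocket protein genes, 6 CDK inhibitors or 20 mitosis genes was called by edgeR's quasi-likelihood test, with 4, 4, 3 and 0 at an unadjusted p below 0.05 and none called by DESeq2. Cdkn1a had 22.8 and 17.7 CPM in BV2 cells with LPS, against 14.0 and 9.90 CPM without, with no overlap, and did not pass the test (adjusted p = 0.134). The LPS responses of Rbl1 and Cdkn1a differed between the cells, at -2.70 ± 0.25 (SE, adjusted p = 3.17e-09) and -1.66 ± 0.25 (adjusted p = 1.89e-05), BV2 cells minus primary microglia. Both differences were called in all 17 alternative analyses. E2f4 at -0.71 (adjusted p = 0.0357) and Asf1b, a histone chaperone of the fork, at 1.25 (adjusted p = 0.0490) were called too. They were not called in 12 and 10 of these alternatives, single libraries left out among them. Over all 11626 genes tested, 12.2% were called for the difference of responses.

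**Figure D5:**
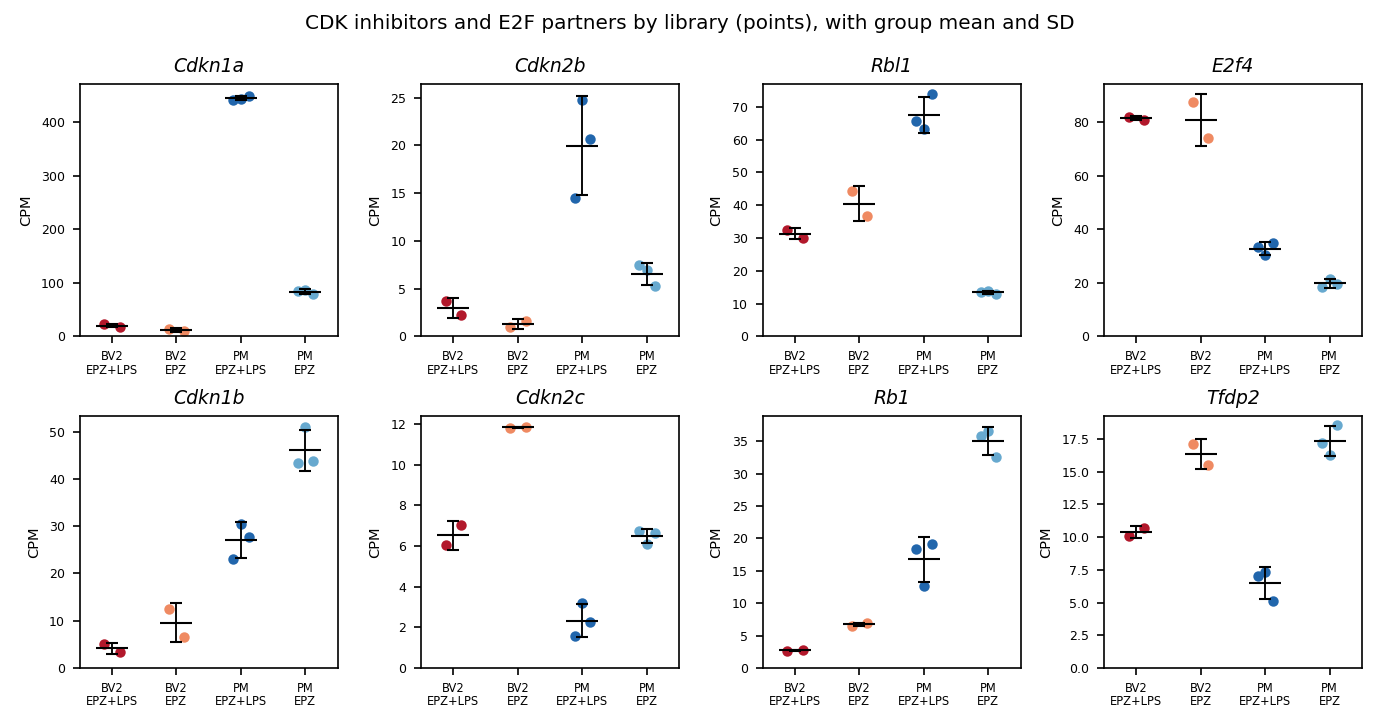
CPM by library for 8 genes that restrain the cycle or pair with E2F factors, 1 panel each, with BV2 cells with LPS and without LPS left of primary microglia with LPS and without LPS; points are libraries and bars the mean ± SD. Cdkn1a, Cdkn2b, Rbl1 and E2f4 sit higher and Cdkn1b, Cdkn2c, Rb1 and Tfdp2 lower with LPS in primary microglia.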

How the data were processed

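Strand-specific paired-end RNA-seq of 10 libraries was analysed. The deposited values are whole-number read counts for each gene symbol, laid out as STAR writes them, of which the reverse-strand values entered the tests. The submitters' processing notes name CASAVA 1.8.2, Trimmomatic 0.33, STAR 2.5.1, DESeq2 and the mm10 build, while the authors' gene annotation is not named in these sources. Rows that name no gene stayed out of library sizes. Together these rows held 70.4% to 79.5% of the reads. Multimapping reads, at 7.64% to 11.8%, are part of that share. Libraries were scaled by TMM. Genes were kept by filterByExpr (minimum count 10, minimum total 15) and tested by edgeR 4.0.16 quasi-likelihood F-tests (R 4.3.3), with Benjamini-Hochberg adjustment over all genes tested and a threshold of 0.05. The LPS responses were fitted on the 6 primary and on the 4 BV2 libraries, and the cell comparisons and the difference of responses on all 10. SE is that of the log2 fold change. DESeq2 1.42.0, other scalings, no filter, unstranded counts, a replicate block, libraries left out and other fits were alternatives. The set of 47 genes, the other lists and the rules were chosen with earlier results of these data known. A gene was named with all its values when called in an LPS comparison or in the difference of responses, or when among the 10 with the largest cell difference without LPS. Per list at most 4 called genes with the smallest p served as examples, and further names were added after their values were seen. Transcript lengths and gene positions came from GENCODE M21 (GRCm38, the longest basic protein-coding transcript) and promoters from RefSeq. The test was checked on simulated counts, with changes placed only in well-counted genes and the same dispersion for every gene. That check does not cover genes of few reads or the spread among these libraries. Depth limits precision for genes of a few reads.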

Additional observations from a re-analysis of the deposited data

Results flagged for a closer look

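The LPS response differed between BV2 cells and primary microglia for 5 of the 47 genes, or 10.6%. Over all 11626 genes tested, 12.2% were called, so the share is close to the background. The test was of the difference itself (edgeR's quasi-likelihood test, log2 scale, BV2 cells minus primary microglia). The value was -1.77 for Cdk6, -1.24 for Pcna, -1.12 for Rfc3, -0.68 for Mcm6 and 1.04 for Dnmt1. Cdk6, Pcna and Dnmt1 passed in all 17 alternative analyses. Mcm6 did not pass without replicate 1, 2 or 3 of untreated primary microglia (adjusted p = 0.0741, 0.108 and 0.0775), without replicate 1 of BV2 cells without LPS (0.0863) or without replicates 2 and 3 of primary microglia with LPS (0.0908). Rfc3 did not pass without replicate 3 of untreated primary microglia (0.0793), without replicate 1 of BV2 cells without LPS (0.0524), without replicates 2 and 3 of primary microglia with LPS (0.201) or with DESeq2 (0.0608). Mcm3, at 1.14, passed without the filter on low counts, with the replicate block, without replicate 3 of untreated primary microglia and without replicate 1 of primary microglia with LPS.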

How the results depend on the processing

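The calls between BV2 cells and primary microglia held under all alternatives within narrow limits: 43 to 44 genes higher and 1 lower without LPS, and 43 to 45 higher and 2 lower with LPS. The LPS counts moved more. In primary microglia 3 genes were higher with DESeq2 and 3 without replicates 2 and 3 of the group with LPS (an alternative chosen after seeing the data), and 3 to 5 when single libraries were left out. There 3 were lower with DESeq2 and 3 to 7 with single libraries left out. The whole table moved too, with 3258 of 12628 genes called by DESeq2, against 4178 of 10664 as reported. Leaving out single primary libraries gave 3322 to 5326 calls over all genes. In BV2 cells 2 were lower with no low-count filter and 1 to 2 with single libraries left out. Over all genes 247 of 12869 were lower there with no filter, against 141 of 9321 as reported. For the difference of responses 2 were higher with no filter and 2 with the replicate block. Over all genes 457 and 509 were higher in these, against 412 as reported. Leaving out single primary libraries gave 1 to 2 higher and 2 to 5 lower. Over all genes it gave 340 to 876 higher and 757 to 1048 lower, against 412 and 1006 as reported. Whether replicate numbers in the labels pair the libraries was not settled. Deviations from the group mean had correlations of 0.236, -0.139 and 0.258 in same-numbered primary libraries. In differently numbered ones they ran from -0.403 to 0.296. Same-numbered BV2 libraries had 0.235 and differently numbered ones -0.235. With 2 libraries a group these mirror each other by construction, so they cannot show pairing or its absence. With the replicate block, 5 genes were higher and 8 lower in primary microglia, 0 and 1 in BV2 cells, 44 and 1 between cells without LPS, 44 and 2 with LPS, and 2 and 4 in the difference.

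Some values changed sign. Ccnd1 in primary microglia, reported at -0.54, was -0.87 without replicate 1 of the group with LPS. It was 0.037 without replicates 2 and 3 of that group. Its difference of responses, reported at -0.39, was between -0.61 and 0.025 with single libraries left out. Without those 2 replicates the difference was -0.95. Rfc3 in BV2 cells was 0.0041 with RLE size factors, 0.011 with DESeq2 and 0.0021 with unstranded counts, and -0.026 to 0.047 with single libraries left out. The causes were not tested. In BV2 cells DESeq2 called 311 genes over the whole table, against 485. DESeq2 and the unfiltered table shifted the median of all genes between the cells without LPS to -0.60 and -0.53, against -0.23. Prim1, not tested in primary microglia in the reported fit, was called lower where it was tested without the filter on low counts. The depth left 12 of the 47 genes untested in primary microglia.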
